A study of Homo sapiens with 8 samples.

Results

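The cholesterol and fatty acid synthesis genes were followed by RNA sequencing in HS578T cells, an established human breast cancer line, after forced expression of the transcription factor HSF2 and stimulation with TGF-β1. The set was the 32 rows of the gene count table that carry the symbol of a named member, out of 60708 genes in the table and 16008 that passed the low-count filter; all 32 passed it. It holds 19 enzymes of the sterol branch, 7 enzymes of the fatty acid branch, and 6 regulators and carriers. The 4 groups had 2 libraries each. HSF2oe TGF-β cells received 25 µg of an HSF2 plasmid and, 24 h later, 10 ng/ml TGF-β1 for 24 h. HSF2oe control cells received the same plasmid and assay medium alone. Mock TGF-β and Mock control cells received a GFP plasmid in the same amount, with and without TGF-β1. Every group was therefore transfected, and no untransfected cells were analysed here.

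Cholesterol is built from acetyl-CoA through mevalonate, isoprenoid units and squalene to lanosterol, which a chain of further enzymes converts to cholesterol. Fatty acids are built from the same acetyl-CoA by carboxylation, chain synthesis, elongation and desaturation. Both branches are controlled by the SREBP transcription factors, which are made as membrane precursors. SCAP escorts the precursors out of the endoplasmic reticulum when sterols are scarce, and INSIG proteins hold them back when sterols are plentiful. SREBP-2, the product of SREBF2, is best known for sterol genes, and SREBP-1, the product of SREBF1, for fatty acid genes. HSF2 is a heat shock factor, which binds repeated GAA units, and TGF-β1 is a cytokine that signals through SMAD proteins.

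HSF2oe cells had less RNA of most of these genes than Mock cells, in both branches and with or without TGF-β1. Averaged over both treatments, 27 of 32 members fell and none rose, where 17.3% of all genes tested fell and 15.2% rose, 32.5% in all. The genes that fell were 16 of 19 sterol enzymes, 6 of 7 fatty acid enzymes and 5 of 6 regulators and carriers. The stearoyl-CoA desaturase SCD, the fatty acid desaturase FADS2, the sterol reductase TM7SF2 and the transcription factor SREBF1 had the largest differences, 2.95-, 2.84-, 2.72- and 2.40-fold lower in HSF2oe cells. With TGF-β1, averaged over both plasmids, 5 of 32 members rose and 2 fell, a share near that of all genes tested, of which 10.1% rose and 10% fell, 20.2% in all. Calls were made with edgeR's quasi-likelihood test at a Benjamini-Hochberg adjusted p under 0.05 over all 16008 genes, and ± values beside log2 fold changes are standard errors.

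**Figure D1:**
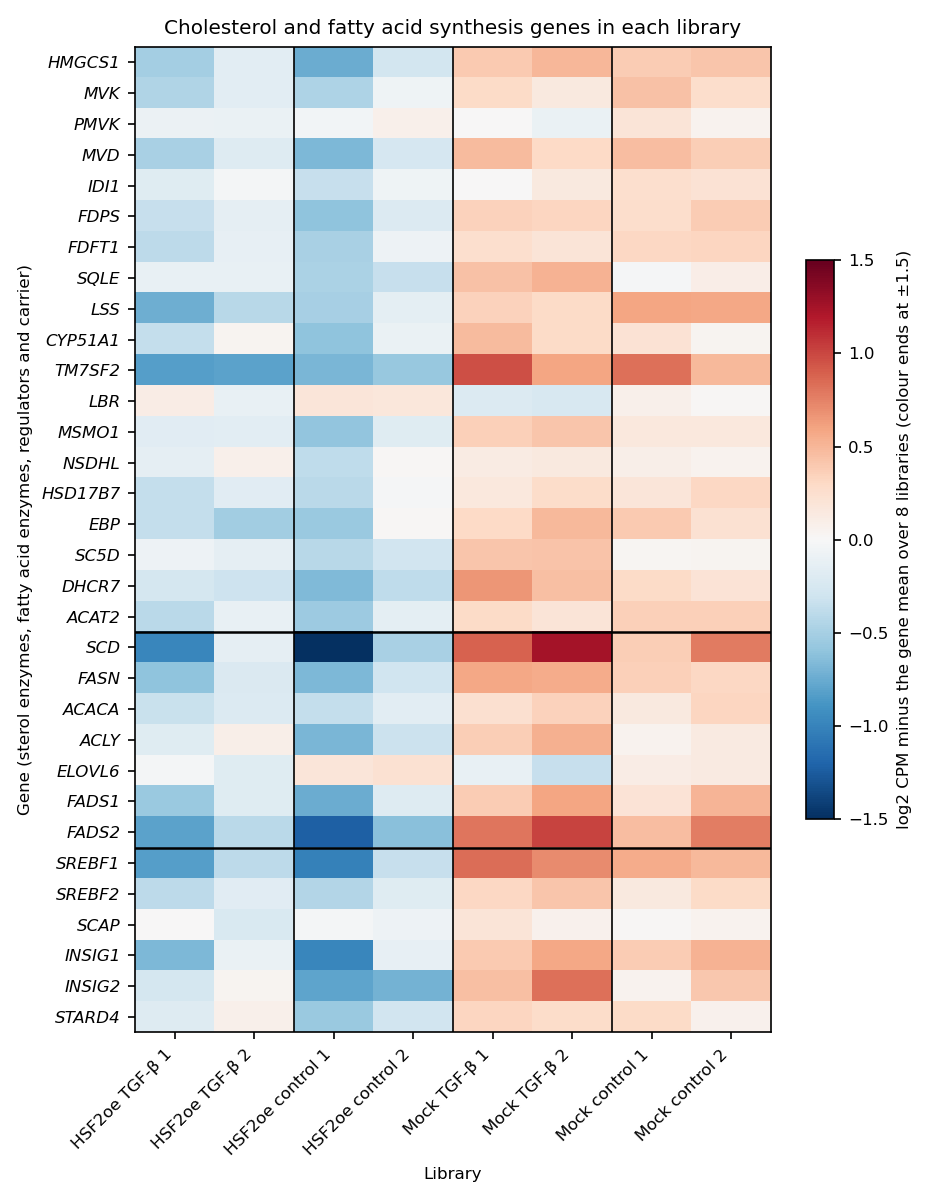
Colours show the log2 CPM of each of the 32 members (rows, by branch) in each of the 8 libraries (columns, HSF2oe left of Mock) as the difference from that gene's mean over all libraries. Most rows were below their mean in the 4 HSF2oe libraries and above it in the 4 Mock libraries, with ELOVL6 and LBR among the exceptions.

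The libraries held 17427645 to 34336107 counts, so that 3 counts, the limit that a count of 0 allows, equal 0.0851 to 0.195 CPM, the count scaled to library size. HSF2 itself had 780.3 and 489 CPM in HSF2oe TGF-β, 937 and 616 CPM in HSF2oe control, 5.4 and 5.76 CPM in Mock TGF-β, and 8.36 and 6.44 CPM in Mock control, with plasmid and endogenous transcripts counted together. The cells had the mesenchymal markers VIM (3179 to 4173 CPM) and FN1 (25182 to 54230 CPM), while the epithelial markers EPCAM, KRT5, KRT19, CLDN3 and ESRP1 were at or near 0, up to 0.369 CPM. Other epithelial markers were present: KRT14 had 175 to 538 CPM, KRT18 177 to 274 CPM and KRT8 15.6 to 26.1 CPM, while CDH1 reached 1.17 CPM and CLDN4 2.13 CPM. Of the adipocyte markers, ADIPOQ and CIDEC were at 0 and PPARG had 6.74 to 13.2 CPM; the 5 hepatocyte markers reached at most 0.218 CPM. In these bulk samples, fewer cells that express a gene and less RNA per cell cannot be told apart.

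Within the sterol branch, the mevalonate enzymes came first. HMGCS1 adds acetyl-CoA to acetoacetyl-CoA to make HMG-CoA (ENSG00000112972.15, chr5:43287470-43313512, minus strand). It had 351 and 449.5 CPM in HSF2oe TGF-β, 299 and 414 CPM in HSF2oe control, 658 and 705 CPM in Mock TGF-β and 654 and 668 CPM in Mock control. No HSF2oe library reached the level of any Mock library, and HMGCS1 fell by 0.83 on the log2 scale over both treatments (SE 0.11, edgeR quasi-likelihood test, adjusted p = 9.19e-05). ACAT2, which makes acetoacetyl-CoA, had 137 and 168 CPM in HSF2oe TGF-β, 125 and 164 CPM in HSF2oe control, 222 and 208 CPM in Mock TGF-β and 232 and 232 CPM in Mock control. The mevalonate kinase MVK had 43.9 and 53.6 CPM in HSF2oe TGF-β, 43.6 and 57.3 CPM in HSF2oe control, 72.9 and 66.1 CPM in Mock TGF-β and 81.4 and 71.9 CPM in Mock control. MVD, which forms isopentenyl diphosphate, had 158 and 194 CPM in HSF2oe TGF-β, 139 and 186 CPM in HSF2oe control, 307 and 273 CPM in Mock TGF-β and 305 and 286 CPM in Mock control. All 3 were lower in every HSF2oe library than in every Mock library, with log2 differences of -0.59 ± 0.09, -0.56 ± 0.10 and -0.79 ± 0.10 over both treatments. PMVK, which acts between MVK and MVD, did not pass the test in any comparison: its averaged difference was -0.07 ± 0.08, with a 95% interval of -0.25 to 0.11.

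The isoprenoid and squalene steps followed. IDI1, the isomerase that balances the isoprenoid units, had 64.4 and 71.2 CPM in HSF2oe TGF-β, 57.1 and 69.8 CPM in HSF2oe control, 73.1 and 80.7 CPM in Mock TGF-β and 86.7 and 84.3 CPM in Mock control. All 4 HSF2oe libraries were below all 4 Mock libraries, and IDI1 fell by 0.31 over both treatments (adjusted p = 0.00966, edgeR quasi-likelihood test) but did not pass with TGF-β1 taken alone (-0.18 ± 0.11). FDPS makes farnesyl diphosphate and had 131 and 153 CPM in HSF2oe TGF-β, 109.7 and 145 CPM in HSF2oe control, 212 and 209 CPM in Mock TGF-β and 201 and 217 CPM in Mock control. FDFT1, which makes squalene, had 477 and 575 CPM in HSF2oe TGF-β, 445 and 595 CPM in HSF2oe control, 746 and 713 CPM in Mock TGF-β and 775 and 779.6 CPM in Mock control. For both, every HSF2oe library was below every Mock library. SQLE, the epoxidase that opens the way to sterols, had 576 and 579.9 CPM in HSF2oe TGF-β, 449 and 489.7 CPM in HSF2oe control, 847 and 896 CPM in Mock TGF-β and 617 and 669 CPM in Mock control. LSS, which closes the ring to lanosterol, had 177 and 220.2 CPM in HSF2oe TGF-β, 209 and 265 CPM in HSF2oe control, 373 and 358 CPM in Mock TGF-β and 442 and 439 CPM in Mock control. The averaged log2 differences were -0.64 ± 0.09 for FDPS, -0.53 ± 0.10 for FDFT1, -0.52 ± 0.07 for SQLE and -0.89 ± 0.09 for LSS. Without TGF-β1 and with it, each of these 4 genes passed the test separately.

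The steps after lanosterol held genes with differences of both signs. CYP51A1, the lanosterol demethylase, had 43.4 and 56.8 CPM in HSF2oe TGF-β, 36.4 and 51.7 CPM in HSF2oe control, 77.2 and 67.4 CPM in Mock TGF-β and 64.4 and 57.1 CPM in Mock control. It fell by 0.50 over both treatments and passed the test with TGF-β1 but not without it (adjusted p = 0.0328 and 0.0781, edgeR quasi-likelihood test). TM7SF2 and LBR are both known as sterol C14 reductases, LBR also as a protein of the nuclear envelope. TM7SF2 had 2.89 and 2.94 CPM in HSF2oe TGF-β, 3.18 and 3.44 CPM in HSF2oe control, 10.0 and 7.72 CPM in Mock TGF-β and 9.07 and 7.15 CPM in Mock control. LBR had 63.4 and 54.6 CPM in HSF2oe TGF-β, 66.6 and 66.2 CPM in HSF2oe control, 51.1 and 49.5 CPM in Mock TGF-β and 61.8 and 59.4 CPM in Mock control. TM7SF2 fell by 1.44 on the log2 scale (SE 0.14, adjusted p = 1.65e-05, edgeR quasi-likelihood test), the largest fall among the 19 sterol enzymes. LBR had the opposite sign, 0.18 ± 0.07, and did not pass (adjusted p = 0.0636, edgeR quasi-likelihood test). Among the alternatives, LBR passed with a difference of 0.32 when libraries were scaled by their totals alone. It also passed with at least 10 counts in every library, at 0.19, and with a replicate block, at 0.18. Without HSF2oe TGF-β replicate 2 its difference was 0.24.

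Of the demethylation and isomerization enzymes, MSMO1 had 175 and 175 CPM in HSF2oe TGF-β, 129.6 and 173 CPM in HSF2oe control, 251 and 262 CPM in Mock TGF-β and 219 and 219.6 CPM in Mock control. HSD17B7, a sterol ketone reductase, had 15.9 and 18.1 CPM in HSF2oe TGF-β, 15.3 and 20.1 CPM in HSF2oe control, 22.7 and 24.6 CPM in Mock TGF-β and 23.1 and 25.3 CPM in Mock control. EBP, the isomerase that binds emopamil, had 8.19 and 7.29 CPM in HSF2oe TGF-β, 7.10 and 10.6 CPM in HSF2oe control, 12.8 and 14.7 CPM in Mock TGF-β and 13.8 and 12.3 CPM in Mock control. These fell by 0.54, 0.47 and 0.69 over both treatments; EBP passed the test with TGF-β1 and not without it. NSDHL, a decarboxylase of the same stretch, had a difference of -0.20 ± 0.09 with a 95% interval of -0.39 to -0.01 and did not pass (adjusted p = 0.0985, edgeR quasi-likelihood test). SC5D, a desaturase, had 72.5 and 69.5 CPM in HSF2oe TGF-β, 57.3 and 62.3 CPM in HSF2oe control, 102 and 102 CPM in Mock TGF-β and 77.6 and 78.4 CPM in Mock control. DHCR7, which carries out the last reduction to cholesterol in one of its routes, had 535 and 518 CPM in HSF2oe TGF-β, 405 and 493 CPM in HSF2oe control, 1016 and 878 CPM in Mock TGF-β and 779.7 and 741 CPM in Mock control. Both were lower in all 4 HSF2oe libraries, by 0.45 for SC5D and 0.80 for DHCR7 on the log2 scale.

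Counts of some sterol genes are less certain, because reads were counted without strand and exons are shared with a neighbouring gene: 84.5% of the exonic bases of CYP51A1, 37.7% of HMGCS1, 36.4% of EBP, 22.2% of ACAT2, 18.6% of FDPS and 15% of IDI1 lie in another annotated gene. No other member shared more than 7.88%.

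**Figure D2:**
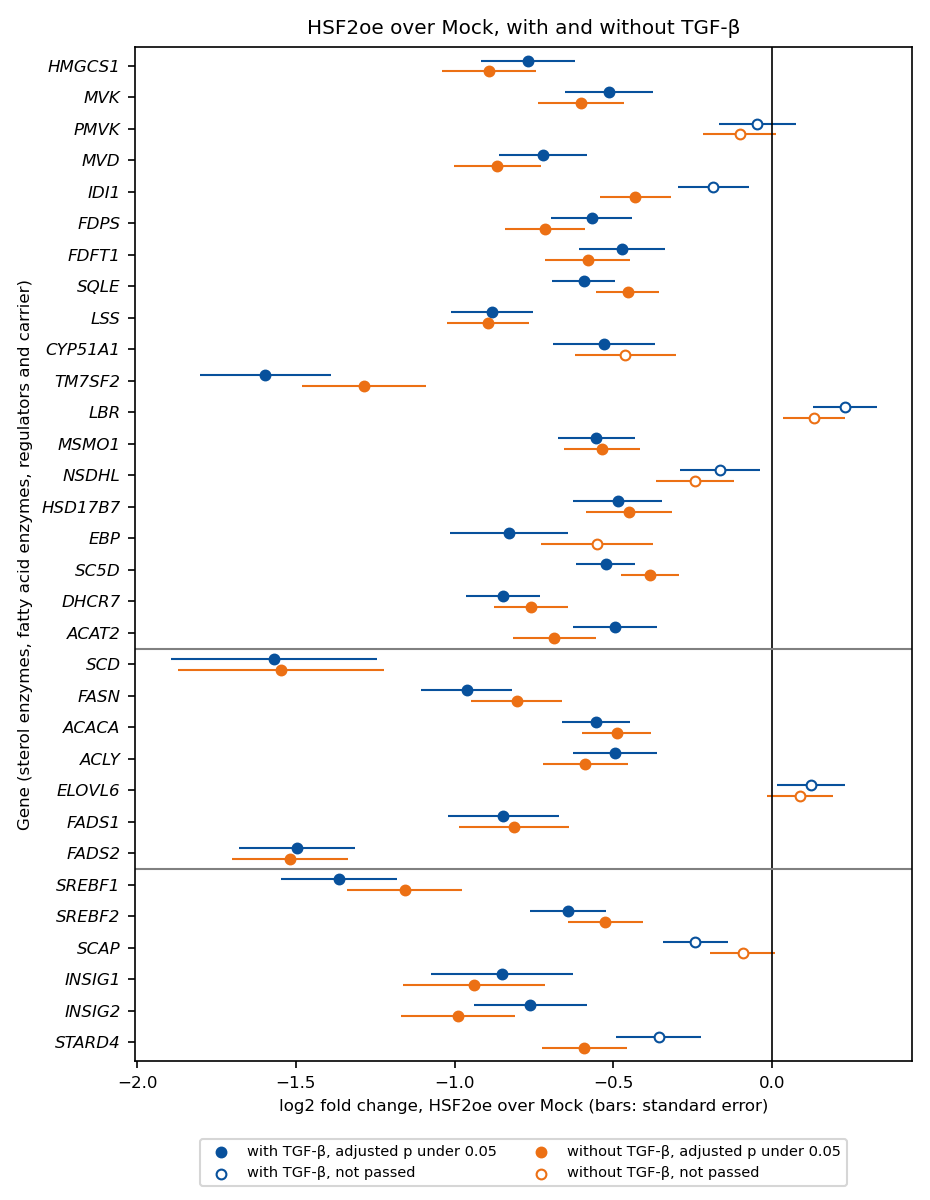
Points give each member's HSF2oe over Mock log2 fold change with TGF-β1 and without it, bars the standard error, and filled points passed an adjusted p under 0.05. The points lie left of 0 for 30 of 32 members in both treatments, and the fatty acid genes SCD and FADS2 with TM7SF2 and SREBF1 lie farthest left.

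The fatty acid branch held the member with the highest level. SCD places the first double bond in saturated fatty acids (ENSG00000099194.6, chr10:100347233-100364826, plus strand). It had 948 and 1705 CPM in HSF2oe TGF-β, 583 and 1338 CPM in HSF2oe control, 3446 and 4429 CPM in Mock TGF-β and 2404 and 3214 CPM in Mock control. Every HSF2oe library was below every Mock library, but the HSF2oe libraries of a treatment also differed widely from each other. SCD fell by 1.56 on the log2 scale over both treatments (SE 0.23, adjusted p = 0.000259, edgeR quasi-likelihood test). FADS1 and FADS2 desaturate polyunsaturated fatty acids. FADS2 had 101 and 132 CPM in HSF2oe TGF-β, 74.7 and 113 CPM in HSF2oe control, 306 and 352 CPM in Mock TGF-β and 240.5 and 297 CPM in Mock control. FADS1 had 202 and 261 CPM in HSF2oe TGF-β, 177 and 259 CPM in HSF2oe control, 386 and 445 CPM in Mock TGF-β and 342 and 423 CPM in Mock control. Both were lower in all 4 HSF2oe libraries, with FADS2 at -1.51 ± 0.13 and FADS1 at -0.83 ± 0.12.

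The enzymes that supply and build the chain had smaller differences than SCD and FADS2, which was not tested. FASN, the fatty acid synthase, had 846 and 1111 CPM in HSF2oe TGF-β, 808 and 1048 CPM in HSF2oe control, 1924 and 1889 CPM in Mock TGF-β and 1649 and 1594 CPM in Mock control. ACLY, which makes cytosolic acetyl-CoA, had 543 and 656 CPM in HSF2oe TGF-β, 383 and 493 CPM in HSF2oe control, 797 and 891 CPM in Mock TGF-β and 641 and 675 CPM in Mock control. ACACA, the acetyl-CoA carboxylase, had 158 and 173 CPM in HSF2oe TGF-β, 155 and 178 CPM in HSF2oe control, 234 and 252 CPM in Mock TGF-β and 219.8 and 249 CPM in Mock control. In ACLY the higher HSF2oe TGF-β library lay above the lower Mock control library, and in FASN and ACACA no HSF2oe library reached a Mock library. They fell by 0.88, 0.54 and 0.52 on the log2 scale over both treatments. ELOVL6, which elongates saturated chains, was the exception. It had 44.5 and 39.9 CPM in HSF2oe TGF-β, 51.4 and 53.2 CPM in HSF2oe control, 42.0 and 35.6 CPM in Mock TGF-β and 48.9 and 49.5 CPM in Mock control. Its HSF2oe difference was 0.11 ± 0.07 with a 95% interval of -0.05 to 0.27 and did not pass (adjusted p = 0.305, edgeR quasi-likelihood test), although scaling by library totals alone gave 0.25 and a call.

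Among the regulators, the genes of both SREBP factors fell. SREBF1 (ENSG00000072310.18, chr17:17810399-17837002, minus strand) had 136 and 184 CPM in HSF2oe TGF-β, 120 and 190.1 CPM in HSF2oe control, 431 and 393 CPM in Mock TGF-β and 355 and 337 CPM in Mock control. It fell by 1.26 on the log2 scale (SE 0.13, adjusted p = 2.18e-05, edgeR quasi-likelihood test). SREBF2 had 425 and 497 CPM in HSF2oe TGF-β, 411 and 493 CPM in HSF2oe control, 694 and 746 CPM in Mock TGF-β and 617 and 682 CPM in Mock control. It fell by 0.58 (SE 0.08). The difference between these falls was not tested. The gene-level count of SREBF1 does not tell its isoforms apart.

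INSIG1, which retains SCAP and the SREBP precursor, had 289 and 427 CPM in HSF2oe TGF-β, 233 and 423 CPM in HSF2oe control, 604 and 688 CPM in Mock TGF-β and 599 and 658 CPM in Mock control. INSIG2, its paralogue, had 7.66 and 9.42 CPM in HSF2oe TGF-β, 5.30 and 5.61 CPM in HSF2oe control, 12.5 and 16.2 CPM in Mock TGF-β and 9.48 and 12.1 CPM in Mock control. They fell by 0.89 and 0.87 over both treatments, and for both every HSF2oe library was below every Mock library. SCAP had 149 and 127 CPM in HSF2oe TGF-β, 146 and 141 CPM in HSF2oe control, 171 and 156 CPM in Mock TGF-β and 151 and 154 CPM in Mock control. All 4 HSF2oe libraries of SCAP were below all 4 Mock libraries, but the difference of -0.17 ± 0.07 did not pass (adjusted p = 0.0965, edgeR quasi-likelihood test). STARD4, a cytosolic sterol carrier, had 19.5 and 23.6 CPM in HSF2oe TGF-β, 15.2 and 18.3 CPM in HSF2oe control, 27.9 and 27.1 CPM in Mock TGF-β and 27.2 and 23.3 CPM in Mock control. It fell by 0.47 over both treatments and passed the test without TGF-β1 but not with it.

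Promoters of members that moved together are shown with the motifs that the SREBP pathway is known to use. The sequences are the 250 bases before the RefSeq start on GRCh38.p14, written 5′ to 3′ on the strand of the gene, and capitals mark the CCAAT box, which appears as ATTGG where it lies on the opposite strand, the sterol regulatory element TCACNCCAC and the E-box CACGTG. SREBF2 and INSIG1 are shown because they are regulators with one of the rarer motifs, HMGCS1, FDPS and MSMO1 as sterol enzymes with several CCAAT boxes, and SCD as the fatty acid gene with the largest difference. Their positions are chr22:41832855-41833104 (plus strand) for SREBF2, chr7:155297628-155297877 (plus strand) for INSIG1, chr5:43313413-43313662 (minus strand) for the upstream start of HMGCS1, chr1:155308616-155308865 (plus strand) for FDPS, chr4:165327419-165327668 (plus strand) for MSMO1 and chr10:100346983-100347232 (plus strand) for SCD.
SREBF2: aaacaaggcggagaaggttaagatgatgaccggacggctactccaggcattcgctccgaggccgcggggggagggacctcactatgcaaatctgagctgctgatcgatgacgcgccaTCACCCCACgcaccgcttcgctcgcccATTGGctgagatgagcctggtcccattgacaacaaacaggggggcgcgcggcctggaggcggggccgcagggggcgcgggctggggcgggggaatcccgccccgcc
INSIG1: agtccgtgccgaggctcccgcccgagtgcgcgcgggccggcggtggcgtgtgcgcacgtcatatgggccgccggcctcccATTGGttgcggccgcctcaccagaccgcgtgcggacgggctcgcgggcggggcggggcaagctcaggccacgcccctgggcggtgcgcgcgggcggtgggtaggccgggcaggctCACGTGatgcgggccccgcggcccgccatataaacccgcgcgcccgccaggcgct
HMGCS1: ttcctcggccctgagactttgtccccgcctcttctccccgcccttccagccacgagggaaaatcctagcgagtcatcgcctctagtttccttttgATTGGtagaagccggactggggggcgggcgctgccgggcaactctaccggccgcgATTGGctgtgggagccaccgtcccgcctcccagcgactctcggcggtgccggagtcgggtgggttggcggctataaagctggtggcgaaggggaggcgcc
FDPS: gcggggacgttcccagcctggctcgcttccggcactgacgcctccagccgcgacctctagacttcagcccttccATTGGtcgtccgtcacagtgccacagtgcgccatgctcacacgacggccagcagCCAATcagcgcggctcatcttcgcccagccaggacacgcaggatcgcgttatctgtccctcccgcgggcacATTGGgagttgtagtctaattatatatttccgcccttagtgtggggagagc
MSMO1: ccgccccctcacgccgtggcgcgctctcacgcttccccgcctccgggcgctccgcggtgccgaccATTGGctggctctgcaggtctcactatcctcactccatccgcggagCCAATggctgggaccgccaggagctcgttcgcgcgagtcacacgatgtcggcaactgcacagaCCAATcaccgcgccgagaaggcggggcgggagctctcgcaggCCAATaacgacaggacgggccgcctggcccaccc
SCD: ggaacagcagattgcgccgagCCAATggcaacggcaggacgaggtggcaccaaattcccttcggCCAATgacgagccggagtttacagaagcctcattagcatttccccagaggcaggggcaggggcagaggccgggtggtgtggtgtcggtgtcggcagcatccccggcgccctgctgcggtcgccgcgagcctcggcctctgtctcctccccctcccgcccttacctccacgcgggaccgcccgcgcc

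In SREBF2, the element reads TCACCCCAC and begins 133 bases before the start, and an ATTGG begins 106 bases before the start. In INSIG1, the E-box begins 55 bases before the start. MSMO1 has 4 CCAAT boxes, FDPS 3, and HMGCS1 and SCD 2 each. Of the 32 members, 28 had an entry in the promoter table; FDFT1, SQLE, ACAT2 and FASN had none. Searched on both strands, CCAAT stood in 19 of 28 members, against 37.0% of 27305 genes and 40.2% of 15843 coding genes. By branch it stood in 13 of 16 sterol enzymes, 3 of 6 fatty acid enzymes and 3 of 6 regulators and carriers. The GC box GGGCGG stood in 26 of 28 members, against 62.1% of coding genes. TCACNCCAC stood in SREBF2 alone, against 1.19% of coding genes, and CACGTG in INSIG1, SC5D and SCAP, against 9.73%. The inverted heat shock unit GAANNTTC stood in 0 of 28 members, against 6.46% of coding genes, and the SMAD box GTCTG in 12 of 28, against 43.8%. In MSMO1 a CCAAT box overlapped a SMAD box, and no other matches of different motifs overlapped in the members. A match or its absence describes these letters in this window only.

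The sterol branch and the fatty acid branch were then compared. The summed level of the 19 sterol enzymes was 3282 ± 245 CPM in HSF2oe TGF-β and 3009 ± 486 CPM in HSF2oe control, against 5076 ± 97.7 CPM in Mock TGF-β and 4736 ± 0.976 CPM in Mock control (SD, n = 2 each). The summed level of the 7 fatty acid enzymes was 3460 ± 874 CPM in HSF2oe TGF-β and 2858 ± 885 CPM in HSF2oe control, against 7714 ± 821 CPM in Mock TGF-β and 6024 ± 677 CPM in Mock control. HSF2oe sums were thus 0.647 and 0.635 of the Mock sums for sterol enzymes with and without TGF-β1, and 0.448 and 0.474 for fatty acid enzymes. SCD carried much of the fatty acid sum. Without SCD, a gene left out with its values in view, the fatty acid sums in HSF2oe cells were at 0.565 of Mock with TGF-β1 and 0.590 without it, nearer to the sterol ratios.

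**Figure D3:**
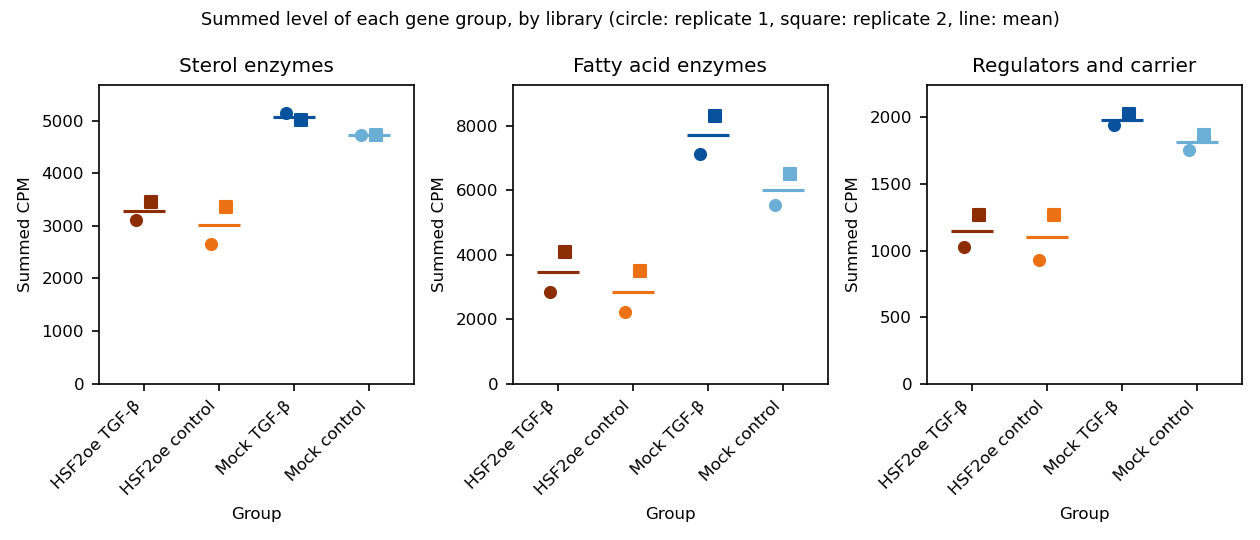
Each point is the summed CPM of the sterol enzymes, the fatty acid enzymes or the regulators and carriers in one library, HSF2oe groups left of Mock groups, and lines are group means. In all 3 panels the HSF2oe libraries lie below all Mock libraries. For the fatty acid branch the 2 libraries of a group lie apart in HSF2oe and in Mock groups.

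Medians over genes were compared as well. The median log2 difference of HSF2oe over Mock was -0.53 for sterol enzymes and -0.85 for fatty acid enzymes with TGF-β1, -0.55 and -0.80 without it, and -0.54 and -0.83 averaged, while the median over all genes was -0.0032 with TGF-β1 and -0.00227 without it. Regulators and carriers had medians of -0.70 with TGF-β1 and -0.76 without it. With TGF-β1, 15 of 19 sterol enzymes and 6 of 7 fatty acid enzymes fell, and without it 14 and 6; across the whole set 25 of 32 fell and 0 rose in each treatment. Of all genes tested, 11.9% fell and 9.6% rose with TGF-β1, and 7.22% fell and 4.88% rose without it. When SCD and FADS2 were left out, a trim picked with these values in view, the fatty acid median was -0.55 with TGF-β1 and -0.59 without it, close to that of the sterol enzymes. The values of single genes ran from -1.44 for TM7SF2 to 0.18 for LBR in the sterol branch and from -1.56 for SCD to 0.11 for ELOVL6 in the fatty acid branch, so that the ranges overlapped widely. The difference of the branches has no test, and in control medium its median shrank to 0.07 without Mock control replicate 2.

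Groups that did not overlap were counted as well. In each treatment, both HSF2oe libraries were below both Mock libraries for 29 of 32 members, against 30.2% of all genes tested with TGF-β1 and 29.0% without it. Across treatments, all 4 HSF2oe libraries were below all 4 Mock libraries for 26 of 32 members, against 10.8% of all genes. The other 6 were PMVK, LBR, NSDHL and ELOVL6, which did not pass the averaged test, and ACLY and STARD4, which did. The calls in one treatment rest on few libraries. Fewer members passed when some single libraries of a comparison were left out. Fewer of all genes passed then as well, so that this loss is not particular to the members. Averaged over both treatments, the calls of the members depended less on any 1 library.

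The 2 libraries of an HSF2oe group were unequal for these genes. In HSF2oe TGF-β, replicate 2 was above replicate 1 for 25 of 32 members, with a median of 0.25 on the log2 scale, and in HSF2oe control for 30 of 32, with a median of 0.38. In Mock TGF-β and Mock control it was above for 16 and 18 of 32, with medians of -0.01 and 0.01, and over all genes for 48.8% to 51.7%. The summed level of all members was 6977 and 8802 CPM in HSF2oe TGF-β and 5828 and 8106 CPM in HSF2oe control, against 14219 and 15328 CPM in Mock TGF-β and 12039 and 13105 CPM in Mock control. Without SCD the sum was 6029 and 7097 CPM in HSF2oe TGF-β and 5245 and 6768 CPM in HSF2oe control. In Mock TGF-β it was then 10772 and 10899 CPM, and in Mock control 9635 and 9890 CPM. In each HSF2oe group the library with more HSF2 RNA had the lower sum. That library was replicate 1 both times, and replicate 1 also had the lower sum in each Mock group. The HSF2 level and the replicate number thus cannot be told apart here. Whether either has a part in the result was not tested.

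Per kilobase of exon, so that genes can be set against each other, SCD was highest in Mock control at 536 CPM per kb. FASN followed at 174, INSIG1 at 172, FDFT1 at 149.6 and SQLE at 149. The libraries of FASN and INSIG1 overlapped, as did those of FDFT1 and SQLE, so that neither pair has an order. The lowest levels were those of TM7SF2 at 2.38 and INSIG2 at 2.73 CPM per kb, whose libraries also overlapped, below STARD4 at 4.45 and HSD17B7 at 5.06.

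**Figure D4:**
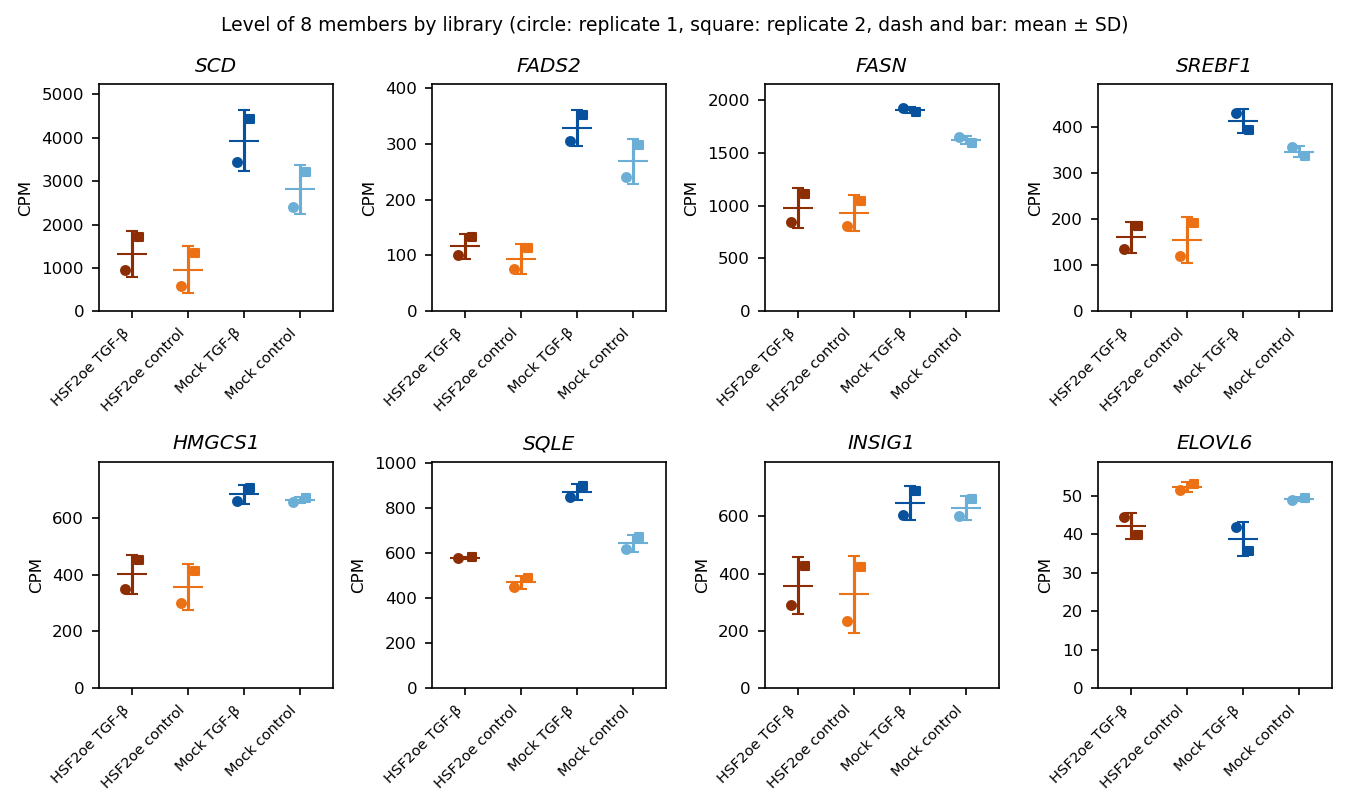
Points give the CPM of each library for SCD, FADS2, FASN, SREBF1, HMGCS1, SQLE, INSIG1 and ELOVL6, a panel per gene, HSF2oe groups left of Mock groups, with dashes and bars for the mean ± SD. HSF2oe points lie below Mock points for every panel but ELOVL6.

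TGF-β1 was compared with control medium next. In HSF2oe cells, 1 of 32 members rose and none fell, where 8.26% of all genes tested changed, 4.45% upward and 3.82% downward. The gene was INSIG2, with 7.66 and 9.42 CPM in HSF2oe TGF-β and 5.30 and 5.61 CPM in HSF2oe control, a log2 difference of 0.64 ± 0.18 (adjusted p = 0.0492, edgeR quasi-likelihood test). In Mock cells, 2 of 32 rose and 1 fell, where 13.8% of all genes changed, 7.32% upward and 6.5% downward. SQLE rose by 0.44 ± 0.10 (adjusted p = 0.00921), SC5D rose by 0.39 ± 0.09 (adjusted p = 0.0117), and ELOVL6 fell by 0.34 (SE 0.11, adjusted p = 0.0474), all by edgeR's quasi-likelihood test. Both Mock TGF-β libraries were above both Mock control libraries for SQLE, with 847 and 896 CPM in Mock TGF-β, against 617 and 669 CPM in Mock control. Each of these calls was lost without some library: SQLE without Mock control replicate 1 or Mock TGF-β replicate 2, SC5D when any 1 Mock library was left out, ELOVL6 without either Mock control library, Mock TGF-β replicate 2 or either HSF2oe control library, and INSIG2 without either HSF2oe control library or HSF2oe TGF-β replicate 2. The highest adjusted p without a library was 0.112 for SQLE, 0.0956 for SC5D, 0.352 for ELOVL6 and 0.291 for INSIG2 (edgeR quasi-likelihood test).

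Averaged over both plasmids, SQLE (0.37 ± 0.07), SC5D (0.32 ± 0.07), DHCR7 (0.27 ± 0.08), ACLY (0.41 ± 0.09) and INSIG2 (0.53 ± 0.13) rose, and LBR (-0.22 ± 0.07) and ELOVL6 (-0.33 ± 0.07) fell. The averaged median was -0.02 for sterol enzymes and 0.15 for fatty acid enzymes, against -0.01 for all genes. SCD had the largest estimate of the fatty acid branch, 0.48 ± 0.23, and did not pass (adjusted p = 0.170, edgeR quasi-likelihood test). These small differences depend on how libraries are scaled. With library totals alone the median of all genes was -0.22 in the averaged comparison and -0.27 in Mock cells. In each of these comparisons 0 members rose and 6 fell. Among all genes, 815 rose and 5246 fell in the averaged comparison, and 608 rose and 3885 fell in Mock cells. The excess of falls under this scaling was thus not particular to the members. LBR lost its averaged call when any 1 library but HSF2oe TGF-β replicate 1 was left out, DHCR7 likewise for any but Mock TGF-β replicate 2 and HSF2oe control replicate 2, and INSIG2 without Mock TGF-β replicate 2, with adjusted p up to 0.179, 0.137 and 0.0511 (edgeR quasi-likelihood test).

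**Figure D5:**
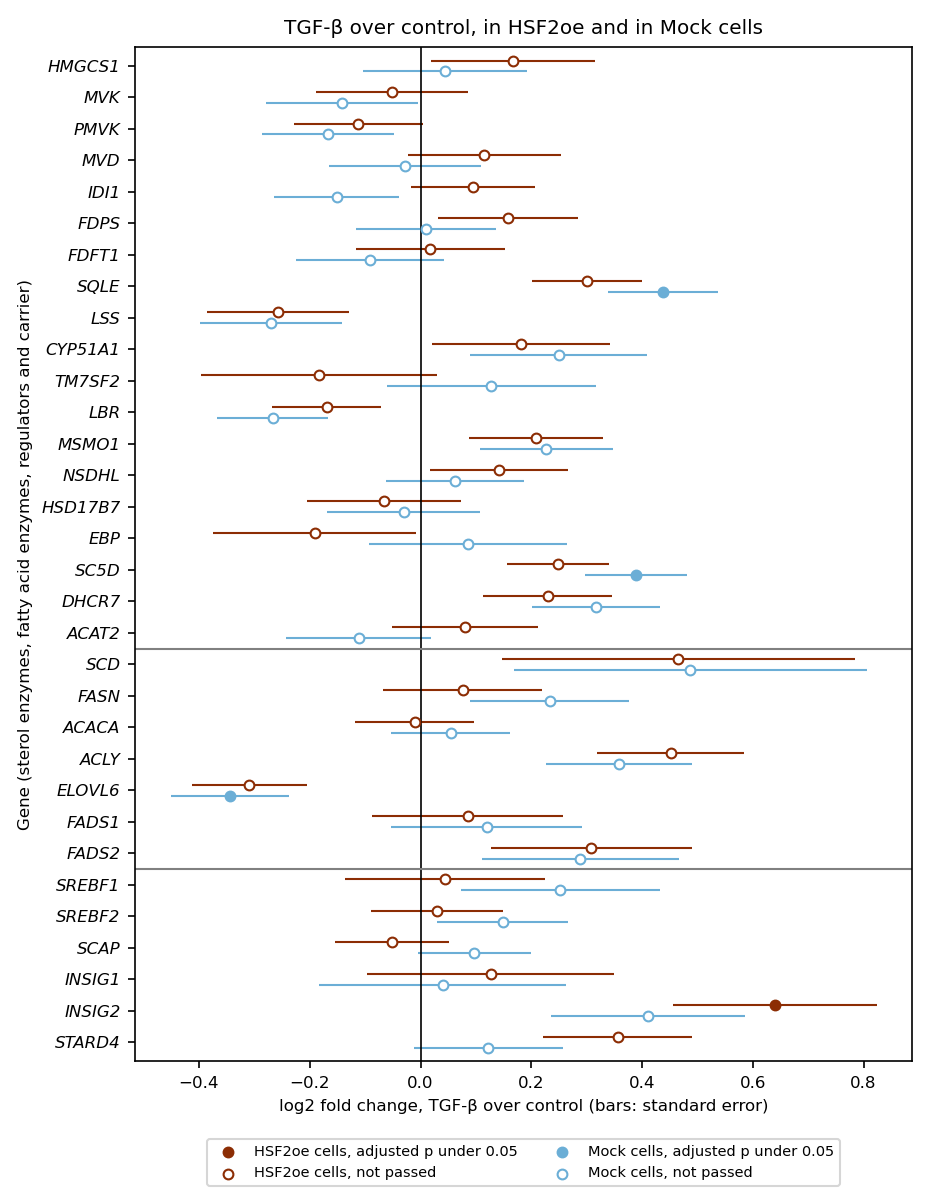
Points give the log2 fold change of TGF-β1 over control for each member in HSF2oe cells and in Mock cells, with standard errors, and filled points passed an adjusted p under 0.05. Points lie on both sides of 0, and the passed genes are INSIG2 in HSF2oe cells and SQLE, SC5D and ELOVL6 in Mock cells.

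Whether TGF-β1 acted differently under HSF2 was tested as the difference of both TGF-β effects. With edgeR's quasi-likelihood test 0 of 32 members passed, 0 had an unadjusted p under 0.05, and the smallest adjusted p was 0.886; over all 16008 genes 0 passed and 977 had an unadjusted p under 0.05. DESeq2 called 24 genes and no member. The members' differences ran from -0.31 (TM7SF2, 95% interval -0.92 to 0.30) to 0.25 (IDI1, -0.10 to 0.59), and for SCD the interval was -0.99 to 0.95, so that a difference of that size was not detectable with 2 libraries a group. The HSF2oe effects with and without TGF-β1, which share no library, had the same sign for 32 of 32 members and a Pearson correlation of 0.944 across the 32 genes (Spearman 0.861), a description only, as genes are not independent replicates.

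Genes around these pathways were listed by role, to be read against the 17.3% of all genes tested that fell and the 15.2% that rose in HSF2oe cells averaged over both treatments. Averaged over both treatments, 22 of 35 further genes of fatty acid and glycerolipid synthesis fell in HSF2oe cells and 2 rose, with a median of -0.27. ACSS2, which makes acetyl-CoA from acetate (-0.99 ± 0.11), the desaturase homologue FADS3 (-0.87 ± 0.07) and the malic enzyme ME1 (-0.63 ± 0.08) were among those that fell. GPAM, the first acyltransferase of glycerolipid synthesis, rose with TGF-β1 (0.96 ± 0.07 over both plasmids). Of 24 genes of sterol efflux, storage and trafficking, 10 fell and 1 rose in HSF2oe cells. Among them VLDLR, a lipoprotein receptor, fell by 1.56, ABCA7, a lipid transporter, by 1.04, and LPCAT3, a phospholipid acyltransferase that shares 66.0% of its exonic bases with EMG1, by 1.11. ABCA1, the cholesterol exporter, rose with TGF-β1 (1.88 ± 0.08).

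Further lists covered oxidation, isoprenoids and SREBP processing, where the same shares of all genes, 17.3% lower and 15.2% higher, apply. Of 22 genes of fatty acid oxidation, 9 fell and 1 rose in HSF2oe cells, where CPT1A fell by 0.59 and ACADS by 0.81. With TGF-β1, ACAA2 had 0.56 ± 0.07 and ECI2 -0.38 ± 0.07. ECI2 shares 29.8% of its exonic bases with other genes, mainly C6orf201. Of 10 genes of the isoprenoid and dolichol branch, 2 rose and 1 fell in HSF2oe cells; PDSS1 rose by 0.77 ± 0.22 in HSF2oe TGF-β over Mock TGF-β, and NUS1 (0.57 ± 0.07) and DHDDS (0.22 ± 0.07) rose with TGF-β1 over both plasmids. Of 13 genes of SREBP processing and sterol-regulated degradation, 1 rose and 2 fell in HSF2oe cells, the protease gene MBTPS1 with -0.33 ± 0.08; TGF-β1 over control gave 0.43 ± 0.07 for SYVN1, -0.28 ± 0.07 for ERLIN2 and 0.30 ± 0.08 for RNF139. The isoprenoid and SREBP processing counts are near or below the 32.5% of all genes that changed. Of 22 DNA replication genes, 20 rose and 0 fell in HSF2oe cells, and of 8 mesenchymal markers 1 rose and 5 fell. The 8 markers summed to 79348 and 74916 CPM in HSF2oe TGF-β and 49035 and 48531 CPM in HSF2oe control, against 111081 and 123744 CPM in Mock TGF-β and 57886 and 67968 CPM in Mock control. Of 10 epithelial markers 5 were tested, 3 fell and 0 rose, and the 10 summed to 388 to 548 CPM in HSF2oe cells and 492 to 832 CPM in Mock cells. The part of these lists in the fall of the lipid genes was not tested.

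Over the 8 libraries, the genes with log2 CPM most like SCD were GYS1 (Pearson r = 0.9953), TMEM179B (0.9946) and THY1 (0.9935), out of 11676 genes. Those most like HMGCS1 were SERPINB6 (0.9963), GNAI2 (0.9939) and FDPS (0.9933), the last a member. Those most like SREBF1 were FASN (0.9962), also a member, MIR1915HG (0.9926) and MMAB (0.9909). The 8 libraries fall into 4 groups, which these correlations share, and they carry no p.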

How the data were processed

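Poly(A) RNA of HS578T cells was sequenced in 8 libraries, 2 per group, called biological replicates in the submitters' design text. The p-values set differences of group means against the spread between libraries within groups, with an estimate that borrows from all genes. Groups follow the sample titles and the design text, because a treatment field of the labels contradicts both. The authors deposited read counts per gene with exonic lengths; per the file headers, featureCounts 2.0.1 counted read pairs on GENCODE release 38 with no strand option set. The submitters' processing notes list STAR 2.7.9a, Subread 2.0.1, edgeR 3.34.1 and GRCh38. A second deposited table has log2 CPM for 13169 genes, all 32 members included, and those values were within 0.0288 of log2 CPM computed here.

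For testing, edgeR 4.0.16 (R 4.3.3) kept 16008 of 60708 genes with filterByExpr, scaled with TMM factors of 0.857 to 1.11, and fitted 1 quasi-likelihood model of the 4 group means to the 8 libraries. Tests were 2-sided, adjusted by Benjamini-Hochberg over all genes, with a threshold of 0.05. The biological coefficient of variation was 9.91%, with 4 residual and 9.21 prior degrees of freedom. The 7 contrasts were HSF2oe over Mock with TGF-β1, without it and averaged, TGF-β1 over control in HSF2oe, in Mock and averaged, and the difference of the TGF-β effects. Standard errors were derived from the log2 fold change and its F statistic. CPM use TMM-scaled totals. Within groups, chi-square per degree of freedom was 12.5 to 26.8, above sampling noise, so no library appeared under separate names. The limit of 3 counts covers counting error only.

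Members and lists were chosen with earlier results of these data known, so no list has a p. Named genes were members called in any contrast, the regulators, up to 4 called genes of each further lipid list by smallest p, and the 3 genes most correlated with SCD, HMGCS1 and SREBF1; 1 result that this rule takes is not reported here. The script was checked on simulated counts. The 16 alternatives were library totals, DESeq2 size factors, no filter or at least 10 counts in every library, a replicate block, only the libraries compared, DESeq2 1.42.0, limma-trend (limma 3.58.1) on the deposited log2 CPM, and each library left out.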

Additional observations from a re-analysis of the deposited data

How the results depend on the processing

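No member reversed a called direction in any alternative. Of the 27 members that fell in HSF2oe cells averaged over both treatments, 26 kept their call in all 15 alternatives run for that comparison. IDI1 lost it with library totals alone and without HSF2oe control replicate 1. In single treatments 14 of 25 calls with TGF-β1 and 7 of 25 in control medium held in all 16, and of the calls for TGF-β1 none in Mock or HSF2oe cells did. Leaving out 1 library gave 15 to 26 members (1509 to 3331 genes, against 3449) for HSF2oe over Mock with TGF-β1, and 7 to 27 members (368 to 1993 genes, against 1937) in control medium. It gave 26 to 28 members (3841 to 4825 genes, against 5199) averaged. For TGF-β1 it gave 0 to 2 members (673 to 1334 genes, against 1323) in HSF2oe, 0 to 3 (1143 to 2266, against 2212) in Mock and 5 to 11 averaged. In that averaged TGF-β1 comparison, members ran from fewer to more than the 7 called with all 8 libraries. Among all genes, fewer passed than with all 8 libraries, whichever library was left out. The higher member counts thus had no counterpart among all genes. Over the fits without 1 library, the sterol minus fatty acid median ran from 0.19 to 0.40 with TGF-β1 and from 0.0743 to 0.27 without it. For the difference of the TGF-β effects it ran from -0.10 to 0.23.

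For TGF-β1 in HSF2oe cells, library totals alone gave 2 members and 2045 genes, no filter 3 and 1707, and at least 10 counts 0 and 1276. The fit on only the 4 libraries compared gave 0 members and 1091 genes, DESeq2 2 and 1287, and limma-trend 0 and 1232. In Mock cells, library totals alone gave 6 members and 4493 genes (608 higher, 3885 lower), and no filter 6 members and 2611 genes. Averaged, library totals alone gave 6061 genes (815 higher, 5246 lower). For HSF2oe over Mock averaged, library totals alone gave 2 members higher and 26 lower, and 4438 genes higher and 1693 lower against 2431 and 2768, with a median over all genes of 0.14. For the difference of the TGF-β effects, 83 genes were called without a filter and 24 with DESeq2. The cause of these changes was not tested, except that library totals shift the median of all genes.

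The replicate numbers carry no stated batch, so same-numbered libraries were not treated as pairs. Their deviations correlated at 0.0498 to 0.163 over 16008 genes, which does not speak for the members alone. Replicate 2 was above replicate 1 in all 4 groups for SCD, FADS2 and INSIG1, among others. Over the 32 members it was above for 25 in HSF2oe TGF-β, 30 in HSF2oe control, 16 in Mock TGF-β and 18 in Mock control. With a replicate block, 7 members and 2366 genes were called for TGF-β1 in HSF2oe cells, 9 and 3350 in Mock cells, and 12 and 4389 averaged. The block gave 27 members and 3614 genes for HSF2oe over Mock in control medium. With TGF-β1 the block gave 1 member higher and 27 lower, with 4900 genes called. Averaged over both treatments it gave 1 member higher and 29 lower, with 6455 genes called. It gave 78 genes for the difference of the TGF-β effects. LBR, at 0.18, was also called higher in HSF2oe cells averaged over both treatments. The fit on the 4 libraries compared was not run for averaged effects or the difference, which use all 8. Depth bears most on the rarest members: TM7SF2 had 69 to 111 counts in HSF2oe libraries. With 2 libraries a group, replication limits the precision of all.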
